A study of Mus musculus with 5 samples.

Results

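Interferon-stimulated genes were followed across 5 single-cell libraries of the mouse submandibular salivary gland. The members are 45 listed gene symbols that type I interferon is known to induce, and they were matched by symbol to the gene lists deposited with the count matrices. The gene list of the 7-day organoid and tissue libraries held 44 of the 45 among 31053 genes, and that of the 11-day library held 43 among 32285 genes, of 32932 genes in all. Mx2 was in neither list, and Mx1 was absent from the 11-day list.

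All cells came from C57BL/6 mice, 8 to 12 weeks old where the labels give an age. Organoids grown from 4 animals were left untreated (the control), given 7 Gy of photons or given 7 Gy of protons in the plateau of the beam on day 5, and all were collected on day 7, 2 days later. Organoids cultured for 11 days without irradiation formed the fourth library, which was run separately, and freshly isolated gland tissue formed the fifth. All organoids grew in a Wnt3a and R-spondin1 medium that was refreshed after irradiation in the 7-day cultures, and the labels' protocol gives a sort of 45000 propidium iodide-negative cells for each sample. There was thus 1 library per condition, no replicate and no test, so every interval below is a 95% interval for counting error only and says nothing about how another culture would differ. For the 11-day library the age of the culture, the run and the version of the counting software cannot be told apart.

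Interferons are secreted proteins that warn cells of viral or displaced nucleic acid. Type I and type III interferons act through their receptors and the kinases JAK1 and TYK2 to assemble a complex with STAT2 and IRF9 that binds the interferon-stimulated response element in the promoters of target genes. The induced proteins sense foreign RNA, modify or trap viral components, restrain translation and feed back on the pathway itself, and epithelial cells can switch on the same genes when their own DNA or RNA reaches the cytosol, for example after radiation.

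The promoters of 5 members are shown because they carry, or lack, the letters to which that complex binds. Promoter windows of 250 bases before to 50 after the gene start came from RefSeq on GRCm38.p6 and were found for 35 of the 45 members; Usp18, Dhx58, Zbp1, Oas2, Mx1, Mx2, Parp9, Parp14, Ifi27 and Rtp4 had no entry. The response element was searched on both strands as GAAA, any 2 bases and GAAA again, and overlapping matches were counted separately. It was present in 17 of the 35 members, 48.6%, against 3.99% of the 27025 genes with a promoter window. The stretches below are the 200 bases before the start on the gene's own strand, with every base of a response element match, on either strand, in capitals. They lie at chr4:156200819-156201018 on the minus strand for Isg15, chr19:34640689-34640888 on the plus strand for Ifit1, chr19:34583329-34583528 on the plus strand for Ifit3, chr12:26456453-26456652 on the minus strand for Rsad2 and chr2:157135097-157135296 on the minus strand for Samhd1.

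Isg15: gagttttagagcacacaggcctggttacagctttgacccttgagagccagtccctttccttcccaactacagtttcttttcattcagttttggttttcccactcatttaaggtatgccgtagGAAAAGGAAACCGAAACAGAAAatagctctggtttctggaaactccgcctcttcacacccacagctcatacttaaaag
Ifit1: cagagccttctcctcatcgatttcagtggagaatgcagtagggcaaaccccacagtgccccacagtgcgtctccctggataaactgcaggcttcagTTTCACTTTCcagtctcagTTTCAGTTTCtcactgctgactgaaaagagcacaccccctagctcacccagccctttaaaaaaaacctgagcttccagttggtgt
Ifit3: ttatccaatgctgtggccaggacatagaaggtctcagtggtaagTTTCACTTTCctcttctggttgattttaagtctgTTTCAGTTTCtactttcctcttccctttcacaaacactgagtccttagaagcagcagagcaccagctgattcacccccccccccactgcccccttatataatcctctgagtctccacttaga
Rsad2: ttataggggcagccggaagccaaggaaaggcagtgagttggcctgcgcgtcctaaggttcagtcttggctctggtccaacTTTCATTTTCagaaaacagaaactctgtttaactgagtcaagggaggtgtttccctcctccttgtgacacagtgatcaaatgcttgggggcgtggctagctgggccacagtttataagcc
Samhd1: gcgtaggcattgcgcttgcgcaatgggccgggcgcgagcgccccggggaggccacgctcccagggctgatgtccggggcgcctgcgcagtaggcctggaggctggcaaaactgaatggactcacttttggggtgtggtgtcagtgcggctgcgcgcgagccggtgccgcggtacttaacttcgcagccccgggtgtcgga

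Isg15 held 3 overlapping matches, beginning 78, 72 and 66 bases before the start. Ifit1 held 2, at 104 and 85 bases, Ifit3 held 2, at 156 and 122 bases, and Rsad2 held 1, at 120 bases. Samhd1 held none. Here and below, 2-fold means a log2 ratio of 1 once 1 CPM has been added to each level, CPM being UMIs per 1000000 UMIs of the library. Of the 17 members with a match, 8 were at least 2-fold higher after photons, and of the 18 without, 3 were, where 0.629% of all genes tested were. Over the other genes with a promoter window, members left out, the shares were 1.18% of 340 with a match and 0.461% of 9326 without. Among members counted in the proton comparison the numbers were 8 of 15 and 5 of 18, against 0.592% of such other genes both with and without a match. A match is a description of letters only, and binding was not measured.

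Some members are neighbours on the chromosome. In the GENCODE annotation of GRCm39, which is not necessarily the build used for counting, Ifit2, Ifit3, Ifit3b and Ifit1 follow each other on chromosome 19 between 34527932 and 34632174. Rsad2 and Cmpk2 adjoin on chromosome 12 between 26492745 and 26529836. Isg15 lies at chr4:156283883-156285303. All 44 members found are protein-coding genes there.

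After removal of barcodes with fewer than 200 detected genes or more than 5% mitochondrial counts and of likely doublets, 6494 control, 15610 photon, 15325 proton, 9484 11-day and 1402 tissue barcodes remained. They held 15837177, 25334373, 24758398, 32102942 and 5925403 unique molecular identifiers (UMIs), the counted RNA molecules, and medians of 899, 1048, 965, 3026.5 and 2378.5 UMIs per barcode. Malat1, a nuclear long non-coding RNA, made up at least 1% of the UMIs in 16.0%, 10.0% and 8.96% of barcodes in the 7-day libraries, in 98.8% of the 11-day barcodes and in 11.3% of the tissue barcodes. Results are therefore also given within that class of barcode. Between 3 and 70 kept barcode sequences were shared by any pair of libraries. The labelled tissue was checked against its markers, with all 10 acinar markers detected in fresh tissue, while the organoid libraries carried all 6 basal duct markers. Detection alone separated them poorly, since organoid libraries held 3 to 6 acinar markers and tissue 5 basal duct markers. Acinar markers summed to 566977 CPM in tissue and 9.17 to 31.4 in organoids, and basal duct markers to 33.1 and 4209 to 9573.

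Summed over the members, the level was 298 UMIs per 1000000 UMIs of the library (CPM; 289 to 306) in control organoids, 561 (552 to 571) after photons and 548 (539 to 557) after protons. It was 1020 (1009 to 1031) in 11-day organoids and 696 (675 to 718) in fresh tissue. The 2 irradiated libraries thus lay well above the control and close to each other, and both lay below the 11-day library. Median-of-ratios scaling, which centres the bulk of the genes, moved log2 ratios to the control by about -0.66 for the 11-day and 1.33 for the tissue library, so where a member's place among the 5 libraries is given below, it holds for CPM over all kept barcodes. At least 1 member UMI was found in 37.0% of control, 47.6% of photon, 46.0% of proton, 89.1% of 11-day and 63.0% of tissue barcodes. Because these shares depend on depth, each barcode was also thinned to 1000 UMIs, and 3930, 6733, 8562, 150 and 15 shallower barcodes were left out in the same order. The shares were then 22.9% (21.2 to 24.5), 40.3% (39.3 to 41.4), 40.5% (39.3 to 41.6), 58.9% (57.9 to 59.9) and 38.1% (35.5 to 40.7).

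**Figure D1:**
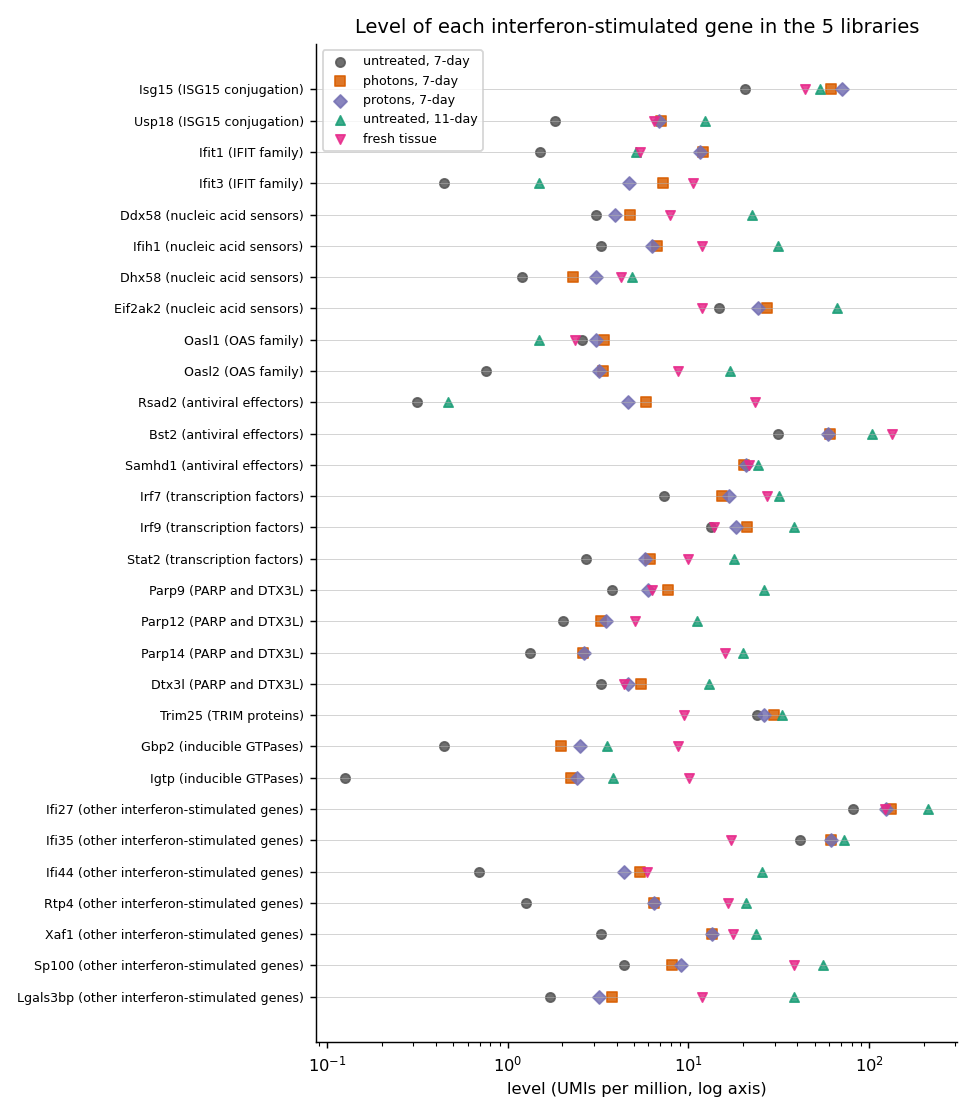
Level of the 30 members with at least 100 UMIs over the 3 libraries of 7-day organoids, in CPM on a log axis, with a symbol for each of the 5 libraries and the role of each gene in brackets. The control symbol lies left of both irradiated symbols for nearly every gene, and the 5 symbols of Samhd1 fall between 20.2 and 24.2.

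Photon irradiation was set against the control to ask which members differ 2 days later. Of the 43 members with at least 10 UMIs in the 2 libraries, 41 were higher after photons, where 63.9% of all genes tested were. At least 2-fold higher were 14, which is 32.6% against 0.629% of all genes tested by the same fold. The median log2 ratio of the members was 0.84, with 0.45 and 1.08 as the medians of their lower and upper bounds, against a median of 0.09 over all genes. No member was 2-fold lower, and for 38 members the interval lay above 0. Neither count was set beside the same count over all genes. Ratios are of CPM with 1 CPM added to each level, which understates the differences of rare genes, and with 0.1 CPM added the median was 1.58 and 27 members were at least 2-fold higher, 62.8% against 3.46% of all genes. Cmpk2 and Trim30a had no UMI in the control, and setting them at the level of 3 UMIs there left the median at 0.84.

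Proton irradiation was set against the same control library, so its ratios are not independent of the photon ratios. Here 40 of 41 members were higher, against 62.0% of all genes tested, and 16 at least 2-fold higher, 39.0% against 0.799% of all genes tested. The median log2 ratio was 0.83, with 0.47 and 1.16 as the medians of the bounds, against 0.08 over all genes. For 35 members the interval lay above 0, again without the same count over all genes.

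**Figure D2:**
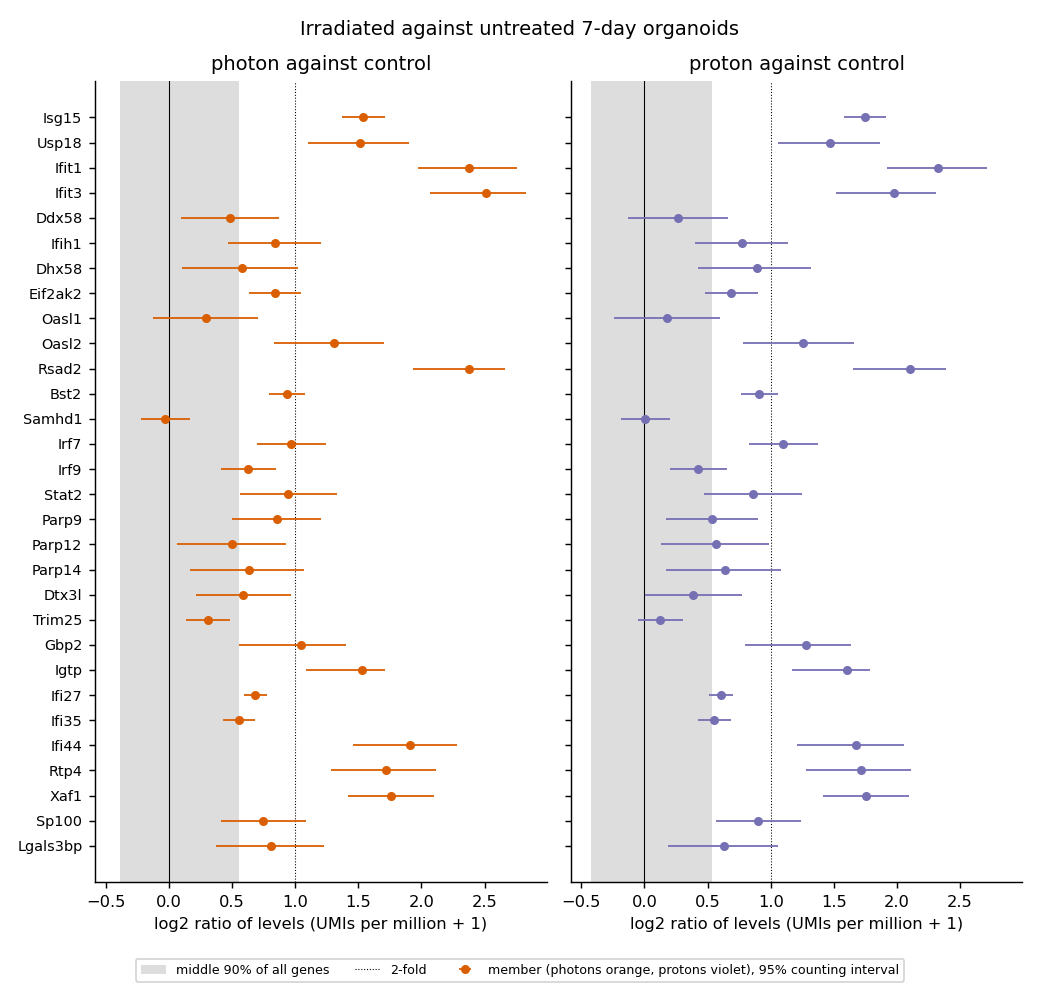
Log2 ratio of the level in the photon library (left) and the proton library (right) to the control for the 30 members with at least 100 UMIs, with 95% counting intervals, beside a grey band that holds the middle 90% of all genes tested. Ifit1, Ifit3 and Rsad2 lie farthest to the right in both panels, at 2.37, 2.51 and 2.38 after photons, while Samhd1 lies on 0.

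The ISG15 system attaches a ubiquitin-like protein to other proteins. Isg15, the modifier itself, was at 20.5 CPM in control, 61.5 in photon, 71.0 in proton, 53.6 in 11-day and 44.2 in tissue libraries. Its log2 ratios to the control were 1.54 (1.37 to 1.71) for photons and 1.74 (1.58 to 1.91) for protons, and the proton library stood highest of the 5 by CPM over all barcodes. In barcodes with a Malat1 share of 1% or more the tissue library was highest, at 192 CPM against 56.4 for protons. In the paragraphs on single members the first ratio is always that for photons and the second that for protons. Usp18, the protease that removes ISG15 and dampens receptor signalling, was at 1.83, 7.07, 6.83, 12.3 and 6.41 CPM in the same order, with ratios of 1.51 (1.10 to 1.90) and 1.47 (1.06 to 1.86). The E1 and E3 enzymes were rarer. Herc6, the mouse ligase, had 6, 42 and 36 UMIs in the 7-day libraries and ratios of 0.95 and 0.83. Uba7, the activating enzyme, had 9, 11 and 14 UMIs and ratios of -0.13 (-0.58 to 0.32) and -0.0026 (-0.48 to 0.44), with intervals that included 0 in both.

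IFIT proteins bind viral RNA that lacks the cap marks of the host, and this family showed the largest difference by role. Summed over its 4 genes, the log2 ratio to the control came to 2.80 (2.44 to 3.15) for photons and 2.69 (2.33 to 3.05) for protons. Ifit1 was at 1.52 CPM in control, 12.0 in photon, 11.6 in proton, 5.11 in 11-day and 5.40 in tissue libraries, so both irradiated libraries were above all the others over all barcodes. In the Malat1-rich barcodes the tissue library was at 23.5 (13.9 to 37.1) CPM, above 15.5 after photons and 11.2 after protons, the former within its interval. Ifit3 was at 0.442, 7.22, 4.69, 1.50 and 10.6 CPM, highest in tissue and higher after photons than after protons, by a proton to photon log2 ratio of -0.53 (-0.82 to -0.24). That difference rested on few barcodes, since 1 photon barcode held 51 of the 183 UMIs, and without the 10 richest barcodes of each library the ratio was -0.016 (-0.34 to 0.31). Ifit2 and Ifit3b had 3 UMIs each in the control, and their ratios were 0.90 (0.42 to 1.16) and 1.20 (0.73 to 1.44) after photons and 1.53 (1.07 to 1.76) and 1.24 (0.78 to 1.49) after protons. Ifit3 and Ifit3b are near-identical copies, so reads may have been split between them.

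Among the sensors of foreign nucleic acid, Eif2ak2, the kinase PKR that halts translation on double-stranded RNA, was at 14.8 CPM in control, 27.2 in photon, 24.4 in proton, 66.7 in 11-day and 11.8 in tissue libraries. Its ratios were 0.84 (0.64 to 1.05) and 0.68 (0.48 to 0.90). Ifih1, which encodes the RNA helicase MDA5, was at 3.28, 6.67, 6.30, 31.2 and 11.8 CPM, with ratios of 0.84 (0.47 to 1.21) and 0.77 (0.40 to 1.14). Both genes thus stayed below a log2 ratio of 1 in the irradiated libraries and were far higher in the 11-day library. Ddx58, the RIG-I helicase, stood at 3.09, 4.74, 3.92, 22.6 and 7.93 CPM, and its proton ratio of 0.26 (-0.13 to 0.66) was not separated from 0 by counting error. Dhx58, a regulator of those helicases, stood at 1.20, 2.29, 3.07, 4.89 and 4.22 CPM, with ratios of 0.58 (0.11 to 1.02) and 0.89 (0.42 to 1.32). Zbp1, a sensor of left-handed nucleic acid, had only 3 control UMIs and ratios of 1.07 (0.60 to 1.32) and 0.64 (0.15 to 0.90).

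The OAS family makes the second messenger that activates RNase L, although not every OASL protein has this activity. Oasl2 was at 0.758 CPM in control, 3.36 in photon, 3.19 in proton, 17.0 in 11-day and 8.78 in tissue libraries, with ratios of 1.31 (0.84 to 1.71) and 1.25 (0.78 to 1.66). Oasl1, which holds back translation of Irf7, was at 2.59, 3.39, 3.07, 1.50 and 2.36 CPM, with ratios of 0.29 (-0.12 to 0.70) and 0.18 (-0.24 to 0.60). The paralogues thus differed, and Oasl1 was by CPM the only one of the members compared that was lower in the 11-day library than in the control, at a log2 ratio of -0.52 (-0.94 to -0.10). Oas1a had 1, 33 and 31 UMIs in the 7-day libraries and ratios of 1.11 (0.68 to 1.22) and 1.08 (0.65 to 1.19), and it shares sequence with Oas1g, which had 1, 10 and 7. Oas3 had 5, 29 and 33 UMIs, with ratios of 0.70 (0.21 to 1.04) and 0.83 (0.33 to 1.16). Oas2 had 1 UMI in each 7-day library and was not used in a ratio.

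Antiviral effectors divided sharply. Rsad2, which encodes viperin, an enzyme that makes a chain-terminating nucleotide, was at 0.316 CPM in control, 5.84 in photon, 4.64 in proton, 0.467 in 11-day and 23.5 in tissue libraries. Its ratios were 2.38 (1.94 to 2.66) and 2.10 (1.65 to 2.39), whereas the 11-day library, which was above the irradiated libraries for most members, was close to the control at 0.16 (-0.30 to 0.50). Cmpk2, its chromosomal neighbour and partner kinase, had no control UMI and 16 and 15 UMIs after photons and protons, which is at least 3.33-fold and 3.20-fold higher than the control at a floor of 3 UMIs per library. Bst2, the membrane tether that holds budding virus, was at 31.2, 60.6, 59.4, 104 and 133 CPM, with ratios of 0.94 (0.79 to 1.08) and 0.91 (0.76 to 1.05). Samhd1, which depletes the nucleotides needed for reverse transcription, was at 20.6, 20.2, 20.7, 24.2 and 21.6 CPM, with ratios of -0.03 (-0.22 to 0.17) and 0.0048 (-0.19 to 0.20). Its 5 levels thus lay close together over all barcodes, but in the Malat1-rich barcodes the tissue level was 102 CPM against 23.1 in the control, a log2 ratio of 2.10 (1.69 to 2.49). Mx1, a GTPase whose C57BL/6 allele is not functional, had 4, 25 and 55 UMIs, with ratios of 0.67 (0.17 to 0.97) and 1.36 (0.89 to 1.64).

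The members that transmit the signal were moderately higher. Irf7, the factor that amplifies interferon genes, was at 7.32 CPM in control, 15.3 in photon, 16.8 in proton, 31.6 in 11-day and 27.2 in tissue libraries, with ratios of 0.97 (0.69 to 1.24) and 1.10 (0.83 to 1.37). Stat2 was at 2.72, 6.16, 5.74, 17.9 and 9.96 CPM, with ratios of 0.95 (0.56 to 1.33) and 0.86 (0.47 to 1.24). Irf9, the DNA-binding subunit of the complex, was at 13.3, 21.2, 18.3, 38.5 and 13.8 CPM, with ratios of 0.63 (0.41 to 0.85) and 0.43 (0.20 to 0.65). Of these 3 genes Irf9 showed the smallest ratios.

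The ADP-ribosyltransferases and their partner Dtx3l, a ubiquitin ligase, had ratios of 0.39 to 0.85, below the 2-fold mark on the scale with 1 CPM added. Parp9, which pairs with Dtx3l, was at 3.79 CPM in control, 7.66 in photon, 5.94 in proton, 26.1 in 11-day and 6.24 in tissue libraries. Dtx3l was at 3.28, 5.45, 4.60, 12.9 and 4.39 CPM, with a proton ratio of 0.39 whose interval (0.0020 to 0.77) all but reached 0. These 2 genes lie head to head on opposite strands of chromosome 16, with overlapping starts. Parp12 was at 2.02, 3.28, 3.47, 11.1 and 5.06 CPM, and Parp14 at 1.33, 2.61, 2.63, 20.0 and 15.9 CPM. For Parp14 the 11-day and tissue libraries stood apart from all 7-day libraries.

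Of the TRIM ubiquitin ligases, Trim25, which activates RIG-I, was at 23.8 CPM in control, 29.8 in photon, 26.1 in proton, 32.8 in 11-day and 9.45 in tissue libraries. Its ratios were 0.31 (0.14 to 0.49) and 0.13 (-0.05 to 0.30), and the tissue library was the lowest of the 5 over all barcodes. In the Malat1-rich barcodes it was at 41.8 CPM against 29.4 in the control, with an interval of the ratio that included 0. Trim30a, a mouse-specific relative, had 0, 11 and 9 UMIs in the 7-day libraries but 147 in 11-day organoids and 62 in tissue.

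Inducible GTPases guard against intracellular parasites and respond to interferon gamma as well as to type I interferon. Igtp was at 0.126 CPM in control (2 UMIs), 2.25 in photon, 2.42 in proton, 3.83 in 11-day and 10.1 in tissue libraries, with ratios of 1.53 (1.09 to 1.71) and 1.60 (1.17 to 1.78). Gbp2 was at 0.442, 1.97, 2.50, 3.55 and 8.78 CPM, with ratios of 1.04 (0.55 to 1.41) and 1.28 (0.80 to 1.63). Gbp3 and Ifi47 had 2 and 3 control UMIs and ratios of 0.76 and 0.42 after photons and 0.51 and 0.11 after protons, and the intervals of Ifi47 included 0 in both. All 4 GTPases were highest in tissue.

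The remaining members have less related functions. Ifi44, a microtubule-associated restriction factor, was at 0.695 CPM in control, 5.37 in photon, 4.40 in proton, 25.5 in 11-day and 5.91 in tissue libraries, with ratios of 1.91 (1.46 to 2.28) and 1.67 (1.21 to 2.05). Xaf1, a pro-apoptotic antagonist of XIAP, was at 3.28, 13.5, 13.4, 23.6 and 17.6 CPM, with ratios of 1.76 (1.42 to 2.10) and 1.75 (1.41 to 2.10). Rtp4, a receptor transporter with antiviral activity, was at 1.26, 6.43, 6.42, 20.9 and 16.5 CPM, with ratios of 1.72 (1.28 to 2.11) and 1.71 (1.28 to 2.11). These 3 genes were each over 2-fold higher after both kinds of irradiation and higher still in the 11-day library. Ifi27, a mitochondrial and nuclear membrane protein, stood at 81.6, 132, 125, 213 and 123 CPM, with ratios of 0.68 (0.59 to 0.78) and 0.60 (0.51 to 0.70). Ifi35 was at 41.6, 61.6, 61.5, 72.6 and 17.2 CPM, with ratios of 0.56 (0.43 to 0.69) and 0.55 (0.42 to 0.68). For these abundant genes the differences were under 2-fold but far outside counting error. Sp100, a nuclear body protein, was at 4.42, 8.09, 9.13, 55.5 and 38.5 CPM, with ratios of 0.75 (0.41 to 1.08) and 0.90 (0.57 to 1.24). Lgals3bp, a secreted galectin ligand, was at 1.70, 3.75, 3.19, 38.3 and 11.8 CPM, with ratios of 0.81 (0.37 to 1.23) and 0.63 (0.19 to 1.06). Both stood highest in the 11-day library.

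The photon and proton libraries were then set against each other. None of 43 members reached a log2 ratio of 1, where 0.132% of all genes did (with 0.1 CPM added 1 member, Mx1, did, against 0.744% of all genes), and the median log2 ratio of proton to photon was -0.05, with -0.35 and 0.23 as the medians of the bounds. For 3 members, Isg15, Ifit2 and Mx1, the interval lay above 0, and for 7 it lay below, without the same counts over all genes. The values of Isg15 were 0.20 (0.11 to 0.30), of Ifit2 0.62 (0.22 to 1.01) and of Mx1 0.70 (0.28 to 1.08). Of the 55 proton UMIs of Mx1, 67.3% lay in the 10 richest barcodes, and a Mx1 UMI was found in 20 proton and 17 photon barcodes. Without the 10 richest barcodes of each library the ratio was 0.12 (-0.30 to 0.52) for Mx1, 0.19 (0.084 to 0.29) for Isg15 and 0.60 (0.18 to 0.99) for Ifit2. The 7 members lower in the proton library were Ifit3 at -0.53, Zbp1 at -0.44, Parp9 at -0.32, Irf9 at -0.20, Trim25 at -0.19, Eif2ak2 at -0.16 and Ifi27 at -0.080. Without the 10 richest barcodes the intervals of Trim25 and Ifi27 still lay below 0, and those of the other 5 included it. These members were singled out after their values were seen.

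The receptor and sensing genes of the pathway that are not members differed less, and ligand genes were too rare for a ratio. Interferon genes themselves were almost undetected, with 1, 1, 3, 6 and 0 UMIs over the 21 ligand genes in the control, photon, proton, 11-day and tissue libraries, all from Ifne, Ifnk, Ifnz or Ifnl2, and no UMI of Ifnb1, an Ifna gene or Ifng was counted. The 6 receptor genes were all higher after both treatments, and none reached a log2 ratio of 1 with 1 CPM added. Ifnar1 was at 4.93 CPM in control, 5.72 in photon and 6.79 in proton, and Ifnar2, its partner for type I interferon, at 9.85, 13.2 and 19.1 CPM, with ratios of 0.39 (0.13 to 0.64) and 0.89 (0.65 to 1.14). Ifnlr1, the specific chain for type III interferon, was at 1.01, 2.53 and 2.58 CPM, with ratios of 0.81 (0.33 to 1.24) and 0.83 (0.36 to 1.27). It was at 7.41 CPM in 11-day organoids and 0.338 CPM in tissue. Ifngr1 at 57.0, 59.4 and 60.5 CPM, Ifngr2 at 27.0, 31.5 and 33.7 CPM and Il10rb at 9.28, 10.1 and 10.3 CPM were closer together. Of 15 genes of nucleic acid sensing and signal induction with enough UMIs none reached a log2 ratio of 1 or -1 after photons or protons.

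Among 61 further interferon-induced genes that are not members, 41 of 47 with enough UMIs were higher after photons and 43 of 48 after protons, with medians of 0.43 and 0.39. Of all genes 63.9% and 62.0% were higher. In each comparison 3 of these genes were at least 2-fold higher, which is to be read against the 0.629% and 0.799% of all genes given above. Cxcl10, a chemokine that draws T cells, was at 1.64 CPM in control, 14.4 in photon, 7.71 in proton, 1.74 in 11-day and 15.5 in tissue libraries, with ratios of 2.54 (2.15 to 2.92) and 1.72 (1.31 to 2.11). The photon level leaned on few barcodes, since those richest and second richest in member UMIs held 49 and 120 of the 364 photon UMIs of Cxcl10. Ccl5, another chemokine, was at 0.884, 2.72, 4.04, 0.966 and 39.7 CPM, with ratios of 0.98 (0.50 to 1.40) and 1.42 (0.96 to 1.82). Ifi205, of the family of DNA-binding p200 proteins, was at 1.20, 3.75, 3.19, 2.71 and 0.675 CPM, with ratios of 1.11 (0.65 to 1.53) and 0.93 (0.47 to 1.36). Both chemokines were near the control level in 11-day organoids.

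Immune cells respond strongly to interferon, so their markers were counted in the same libraries. The pan-leukocyte gene Ptprc, the macrophage gene Adgre1 and the plasmacytoid dendritic cell gene Siglech had no UMI in any 7-day library. The macrophage list of 10 genes had 3, 3 and 4 detected and summed to 14.7, 26.3 and 23.4 CPM, nearly all from Cd68 at 14.5, 26.1 and 23.1 CPM, a lysosomal gene that epithelial cells also express. The T or NK cell list summed to 1.01, 1.22 and 0.485 CPM, the B cell list to 0.189, 0.0789 and 0.202, the endothelial list to 19.1, 18.5 and 16.8 and the fibroblast list to 0.0631, 0.316 and 0.364. The 6 plasmacytoid genes summed to 3504, 3901 and 3667 CPM, nearly all from Ly6d, which these epithelial cells express. Among the 5 former lists Cd68 moved with the irradiated libraries. Without barcodes holding any UMI of those 5 lists the median member ratio was 0.73 after photons and 0.82 after protons, with 14 and 16 members at least 2-fold higher. Over all kept barcodes 0.629% and 0.799% of all genes were, and the shares in this smaller set of barcodes are not given.

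Barcodes in which Malat1 took 1% of the UMIs or more numbered 1040, 1563, 1373, 9369 and 158 in the control, photon, proton, 11-day and tissue libraries. Their summed member level was 284 (271 to 297), 538 (522 to 553), 490 (475 to 505), 1017 (1006 to 1028) and 2891 (2772 to 3014) CPM. In the other barcodes it was 308, 573, 577, 1253 and 370 CPM. The difference between control and irradiated organoids was therefore present in both classes, whereas in tissue the members were concentrated in the Malat1-rich barcodes.

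**Figure D3:**
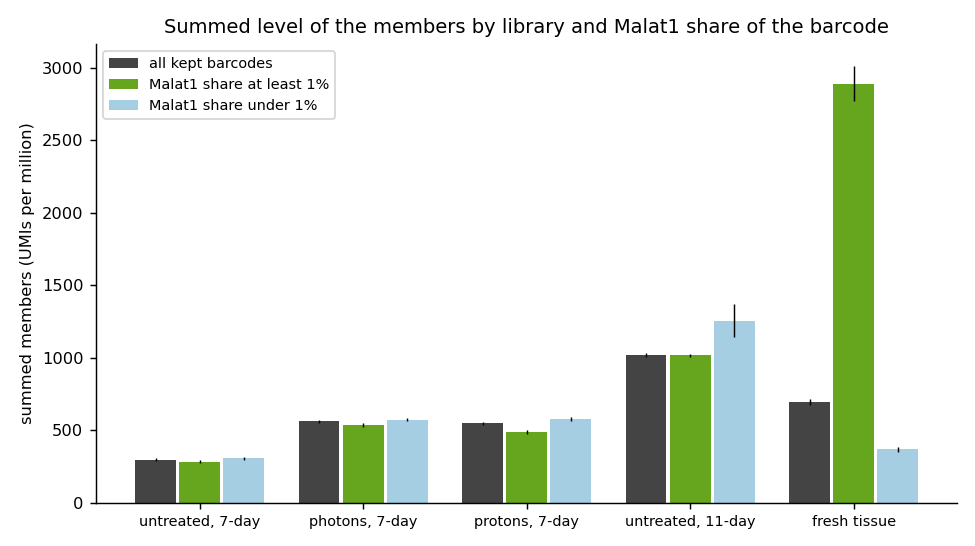
Summed level of the members in each library, in CPM, over all kept barcodes and over those in which Malat1 took 1% of the UMIs or more, or less, with 95% Poisson intervals. The bars of the organoid libraries differ by class far less than those of tissue, which spread from 370 to 2891.

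Within the Malat1-rich barcodes, 37 of 38 members were higher after photons, against 60.1% of all genes, and 15 at least 2-fold higher, against 1.48% of all genes. After protons 33 of 36 were higher, against 54.0% of all genes, and 15 at least 2-fold higher, against 1.2% of all genes. With Mx1, which had no UMI in the control there, held at its bound, each count was 14. The medians were 0.84 and 0.87. Ifit1 was at 0.588, 15.5 and 11.2 CPM in the 7-day libraries, with ratios of 3.38 (2.67 to 3.86) and 2.94 (2.22 to 3.43). Ifit3 was at 0.147, 10.3 and 2.43 CPM, and Rsad2 at 0.441, 11.1 and 4.74 CPM. These 2 genes were the only members that were 2-fold lower in the proton than in the photon library, by -1.72 (-2.26 to -1.16) and -1.08 (-1.56 to -0.60). The richest photon barcode alone held 51 of the 87 Ifit3 and 50 of the 94 Rsad2 UMIs of this class. Without the 10 barcodes richest in members in each library the 2 values were -0.11 (-0.83 to 0.62) and -0.25 (-0.96 to 0.49), from 12 and 11 proton against 14 and 15 photon UMIs. Over all barcodes Rsad2 was then at 0.31 (-0.050 to 0.67). Isg15 was detected in 5.77%, 11.1% and 12.3% of these barcodes and in 4.09%, 7.20% and 8.11% of the others, which are shallower, with medians of 850, 1015 and 942 UMIs against 5875.5, 4407 and 5347. Whether any cell type here lacks Isg15 was not tested.

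The member UMIs were not evenly spread over barcodes. Thinned to 1000 UMIs, the variance of member UMIs per barcode over their mean, which is 1 for even sampling, was 1.20, 2.76 and 3.12 in the Malat1-rich barcodes of the control, photon and proton libraries. In the other barcodes it was 1.05, 1.10 and 1.03. The irradiated libraries were thus more uneven in the Malat1-rich class, in part through single barcodes, since without the 1 barcode richest in members the values there were 1.05, 1.85 and 1.65. At least 3 members were found in 0.312% (0.135 to 0.614), 1.48% (1.24 to 1.75), 1.63% (1.34 to 1.96), 7.66% (7.13 to 8.22) and 6.99% (5.71 to 8.47) of all thinned barcodes of the 5 libraries.

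**Figure D4:**
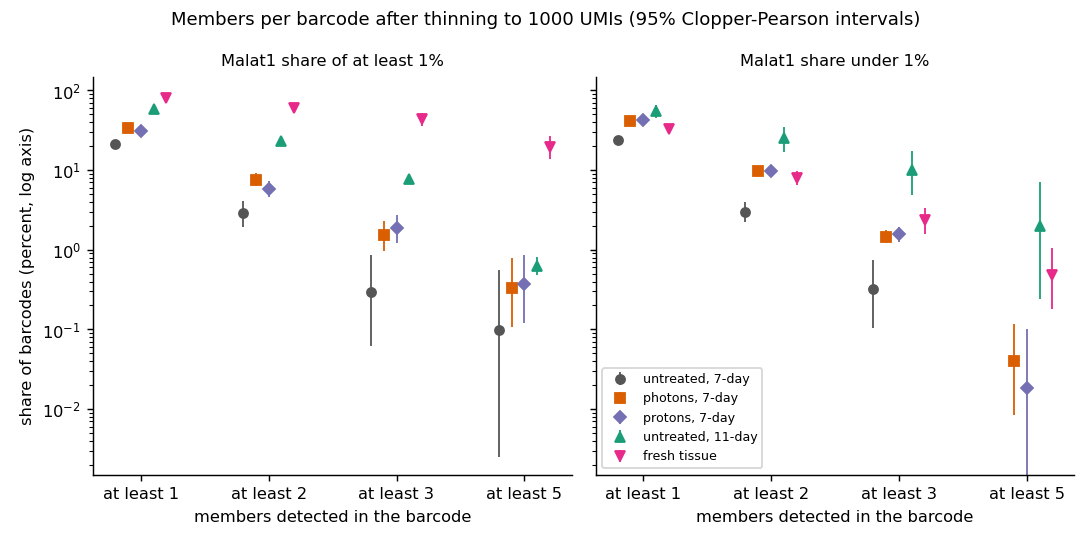
Share of barcodes with at least 1, 2, 3 or 5 members detected after thinning to 1000 UMIs, in percent on a log axis with 95% Clopper-Pearson intervals, for Malat1 shares of 1% or more (left) and less (right). A share of 0 is not drawn. Control organoids lie lowest throughout, and tissue lies highest on the left.

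At full depth a few barcodes carried many members at once. The richest barcode of the photon library held 411 member UMIs from 39 of the 44 members among 21383 UMIs, a level of 19221 CPM. It also held 72 UMIs of Isg15, 51 of Ifit3, 50 of Rsad2 and 49 of Cxcl10. Krt5 had 49 UMIs there, Krt14 38 and Epcam 16, and Ptprc, Cd68 and Pecam1 had none. Ptprc had no UMI in the whole library and basal duct genes were common in it, so these counts do not settle the cell type. The second held 209 member UMIs from 35 members, with 120 UMIs of Cxcl10, 25 of Krt5 and 26 of Krt14.

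In the proton library the richest barcode held 165 member UMIs from 31 members among 8461 UMIs, or 19501 CPM, with 25 UMIs of Krt5 and 22 of Krt14. The richest control barcode held 38 member UMIs from 19 members among 23373 UMIs, or 1626 CPM. Barcodes with at least 10 members numbered 5, 31, 28, 128 and 65 for control, photon, proton, 11-day and tissue, or 0.0770%, 0.199%, 0.183%, 1.35% and 4.64% of barcodes. In the 7-day libraries all of these barcodes held a UMI of Krt5 or Krt14, which was not set beside other barcodes of such depth. Ptprc had no UMI in any 7-day library, so its absence from them does not tell cell types apart. Deeper barcodes detect more members, and the barcodes with at least 10 members had medians of 17348, 11221 and 11303 UMIs in the 7-day libraries. They were picked by their number of members, so these depths do not show what depth contributes to the counts.

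These barcodes held 2.93%, 9.97% and 9.60% of all member UMIs in the control, photon and proton libraries. The 31 photon barcodes also held 184 of the 364 Cxcl10 UMIs, all in 8 of them, and the 28 proton barcodes 40 of 191, all in 4 of them. For single members a few barcodes weighed more. The 10 richest photon barcodes held 54.7% of the Rsad2 UMIs and 39.9% of those of Ifit3, and the 10 richest proton barcodes held 24.3% of the Rsad2 and 28.8% of the Ifit1 UMIs. Without the 10 richest barcodes of each library the photon ratios were 1.62 in place of 2.38 for Rsad2, 1.89 in place of 2.51 for Ifit3 and 2.05 in place of 2.37 for Ifit1. The median over the members was then 0.83 after photons and 0.80 after protons, with 12 and 14 members at least 2-fold higher. Over all kept barcodes 0.629% and 0.799% of all genes were, and the shares without the richest barcodes are not given. None of the barcodes with a UMI of a ligand gene had more than 11 member UMIs in the 7-day libraries.

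Detection of Isg15 together with other members was compared at the thinned depth. Of 49 control barcodes with Isg15, 26.5% (14.9 to 41.1) held another member, against 21.4% (19.8 to 23.0) of those without. The shares were 39.6% (35.2 to 44.1) and 37.0% (35.9 to 38.0) in the photon library and 37.6% (33.1 to 42.3) and 36.3% (35.1 to 37.5) in the proton library. They were 72.1% (67.3 to 76.6) and 57.1% (56.1 to 58.2) in the 11-day library and 69.0% (55.5 to 80.5) and 35.4% (32.8 to 38.0) in tissue. Thus only in the latter 2 libraries did the intervals separate.

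To ask whether the members differ in a part of the cells only, barcodes were clustered without the members and the other interferon genes. The 3 libraries of 7-day organoids formed 6 clusters, of which only the sixth could be named from a marker list, that of cornifying squamous cells. In clusters 1 to 5 the summed level was 292 to 323 CPM in the control, 551 to 586 after photons and 529 to 576 after protons. Their summed levels differed from the control by log2 ratios of 0.78 to 0.97 for photons and of 0.78 to 0.95 for protons. Cluster 6, with Sprr1a, Sprr2d and Cnfn in front and 65, 60 and 57 barcodes, was at 279 (237 to 326), 343 (298 to 393) and 376 (328 to 430) CPM. Its ratios were 0.30 (-0.0049 to 0.60) and 0.43 (0.13 to 0.74), and the photon interval lay below those of the other clusters, while the proton interval overlapped those of clusters 1, 2 and 3.

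**Figure D5:**
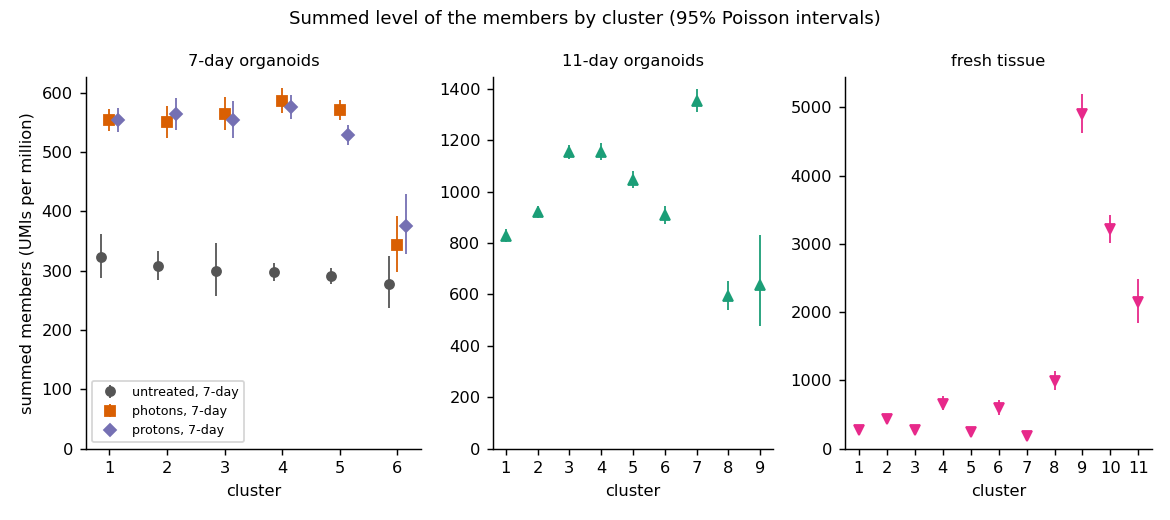
Summed level of the members by cluster, in CPM with 95% Poisson intervals, in the 3 libraries of 7-day organoids, the 11-day organoids and fresh tissue. The vertical axes differ between panels. The irradiated symbols stand apart from the control in clusters 1 to 5 of the left panel, and cluster 9 leads the right panel at 4900.

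Untreated 11-day organoids had a higher level of most members than untreated 7-day organoids. Of 41 members 40 were higher, where 82.4% of all genes were. At least 2-fold higher were 31, which is 75.6% against 42.1% of all genes, and none was 2-fold lower, against 4.4% of all genes. The median log2 ratio was 1.70 where the median over all genes was 0.80, so the members stood 0.90 above it. With median-of-ratios scaling the median of the members was 0.91 and 18 members, 43.9%, were at least 2-fold higher, against 16.8% of all genes. The order of members differed from that after irradiation. Ifi44 at 3.97 (3.55 to 4.31), Lgals3bp at 3.86 (3.49 to 4.22), Sp100 at 3.38 (3.09 to 3.67), Oasl2 at 3.35 (2.94 to 3.70) and Rtp4 at 3.27 (2.88 to 3.64) led. Of the members that led after irradiation, Ifit1 was at 1.28 (0.86 to 1.68), Ifit3 at 0.79 (0.31 to 1.15) and Rsad2 at 0.16, all below the median of the members.

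Within the 11-day library the summed level ran from 596 (541 to 654) CPM in the acinar-like cluster 8, which has Aqp5 among its leading genes, to 1353 (1309 to 1399) in cluster 7, led by Hp and Cst6. Cluster 7 was not named, since none of its 10 leading genes was a marker, although the granular or striated duct markers Klk1, Klk1b26 and Klk1b9 were at least 2-fold higher there than in the other clusters. In cluster 7 Lgals3bp was at 83.3 CPM and Ifi44 at 46.3 CPM. The richest barcode had 66 member UMIs from 23 members, of which 16 were of Ifit1, and the 10 richest held 1.36% of the member UMIs, so no small set of barcodes carried them.

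Fresh tissue showed the greatest contrast between cell types. Against the 7-day control 31 of 41 members were at least 2-fold higher, 75.6% against 11.3% of all genes, and 2 members, Trim25 at -1.25 (-1.64 to -0.87) and Ifi35 at -1.23 (-1.52 to -0.94), were at least 2-fold lower, where 47.3% of all genes were. In the Malat1-rich barcodes no member was lower in tissue, with all 38 counted above the control against 54.3% of all genes, Trim25 at 0.49 (-0.08 to 1.03) and Ifi35 at 1.01 (0.56 to 1.43). The median log2 ratio was 1.75 against -0.92 over all genes, and 3.17 with median-of-ratios scaling, under which 39 members, 95.1%, were at least 2-fold higher against 32.0% of all genes. It was 1.58 with Cmpk2 and Trim30a, which had no control UMI, at their bounds. The acinar marker transcripts alone summed to 566977 CPM in tissue, which lowers the CPM of all other genes there. Rsad2 led at 4.22 (3.76 to 4.50), followed by Igtp at 3.30 (2.84 to 3.49), Ifit2 at 3.09 (2.59 to 3.34) and Ifit3 at 3.01 (2.50 to 3.38), leaving aside Trim30a, which was at least 55.2-fold higher.

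In tissue the member UMIs were unevenly shared between clusters. An endothelial-like cluster of 71 barcodes, number 9, with Pecam1, Kdr and Flt1 in front, held 28.5% of the member UMIs from 4.05% of all UMIs, at 4900 (4624 to 5188) CPM. There Bst2 was at 758 CPM, Rsad2 at 379, Isg15 at 337 and Igtp at 158. Cluster 10, with Cx3cr1 and class II histocompatibility genes in front, was at 3210 (3012 to 3418) CPM, with Bst2 alone at 1133 CPM. It was left unnamed because none of its 10 leading genes was a listed marker, but all 10 macrophage markers were at least 2-fold higher there than in the other clusters. With a coarser clustering a macrophage-like cluster of 60 barcodes, led by Ptprc, Fyb and Cx3cr1, was at 3013 CPM. The T or NK cell-like cluster 11 was at 2147 (1838 to 2492) and the macrophage-like cluster 8 at 996 (864 to 1142) CPM. The acinar-like clusters 5 and 7 were at 246 (225 to 268) and 191 (149 to 242) CPM, and the duct-like cluster 4 at 662 (564 to 772) CPM. A second endothelial-like cluster, number 6, was at 594 (488 to 717) CPM, and its median Malat1 share was 0%, against 2.22% in cluster 9. Without barcodes holding any UMI of the macrophage, T or NK, B cell, endothelial and fibroblast lists, the median member ratio of tissue to control was 0.16, with 8 of 26 members at least 2-fold higher, and in the 25 tissue barcodes with at least 2500 detected genes it was -0.64, with 3 of 19. These values were not set beside the median and share of all genes in the same barcodes, so they do not show how the members stood against other genes.

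The 14 members with fewer than 100 UMIs over the 7-day libraries had 0 to 9 UMIs in the control, 1 to 44 after photons and 1 to 60 after protons. Of the 13 counted after photons 3 were at least 2-fold higher, against 0.629% of all genes, and of the 11 counted after protons 4 were, against 0.799%. Their ratios ran from -0.13 to 1.20 and from -0.0026 to 1.53.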

How the data were processed

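Single-cell RNA libraries of untreated, photon-irradiated and proton-irradiated 7-day organoids, untreated 11-day organoids and fresh tissue were analysed from the UMI counts per gene and barcode that the authors deposited. Per the file headers these counts came from software version 3.0.1 (7-day and tissue libraries) or 7.0.0 (11-day library), the submitters' processing notes name Cell Ranger 5 and mm10, and the study's methods name GRCm39, so build and version are not settled. No column was left without a sample.

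Barcodes with at least 200 detected genes and at most 5% mitochondrial UMIs were kept, after which the highest Scrublet scores, 0.8% per 1000 barcodes, were removed as doublets in every library (378, 2674, 2559, 855 and 16 barcodes). In tissue 11597 of 13547 deposited barcodes had fewer than 200 genes. The study's methods exclude barcodes below 2500 features, a limit that 193, 244, 218, 643 and 25 kept barcodes reach, so it was used only as an alternative.

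Levels were summed UMIs per 1000000 (CPM) with exact Poisson intervals, shares had Clopper-Pearson intervals, and ratios were log2 of CPM plus 1 with intervals from the exact binomial split of the 2 counts. A gene entered a ratio with at least 10 UMIs in the 2 libraries, and 2-fold means a log2 ratio of at least 1. Intervals cover counting error only and were checked on simulated counts. Members with at least 100 UMIs over the 7-day libraries were given with all values, the others by counts and ranges. List genes that are no members were named at 100 UMIs and a 2-fold difference after photons or protons, receptors always, and 1 further gene that the rule names, with the list that holds it, is not reported here. The members and lists were chosen with earlier results of these data known. Clustering used 2000 variable genes, 30 components, 15 neighbours and a Leiden resolution of 0.8, without the members and lists, and clusters were named only with at least 3 markers 2-fold higher than in the other clusters and 1 marker among the 10 leading genes. Scanpy 1.11.5, leidenalg 0.10.2, SciPy 1.17.1 and Python 3.11.15 were used. Alternatives were the barcode, doublet and count filters, depth, pseudocount, scaling, other cell types, near-identical copies and the richest barcodes.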

Additional observations from a re-analysis of the deposited data

How the results depend on the processing

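No paired analysis was possible because each condition is 1 library, and for the same reason no replicate could be left out. The photon and proton medians over the members were positive under every alternative tried. Removing doublets or not, a minimum of 50 UMIs or none, leaving out near-identical copies and leaving out the 10 richest barcodes, an alternative added after seeing the data, kept all medians and counts of members within their intervals or 1.5 times. A pseudocount of 0.1 CPM gave medians of 1.58 (photons), 1.29 (protons), 2.46 (11-day) and 2.38 (tissue), and 27 members at least 2-fold higher after photons. Thinning to 1000 UMIs gave 1.09 (photons), 2.42 (11-day) and 2.21 (tissue). Median-of-ratios scaling shifted the median of all genes by -0.66 for the 11-day and 1.33 for the tissue comparison and gave member medians of 0.91 and 3.17. The tissue median was 0.87 over every deposited barcode, 3.89 where Malat1 took 1% of the UMIs or more, -0.64 in barcodes with at least 2500 detected genes (19 members counted) and 0.16 without barcodes of 5 other cell types. The proton to photon median was 0.079 with at least 2500 genes and 0.0090 without those 5 types, and the proton ratio of Parp9 was -0.68 with at least 2500 genes. Of 60 photon and proton ratios of single members, 27 others lay outside their interval or across 0 with at least 2500 genes, 16 with 0.1 CPM added and 16 at a Malat1 share of 1% or more, as did 29 of 65 ratios and shares on thinning. Leaving out barcodes with a UMI of all 6 other cell type lists, including Ly6d, kept few barcodes: 8 and 10 members were counted, 5 were 2-fold higher in each comparison, and the medians were 1.24 (photons), 1.27 (protons), 2.45 (11-day) and -0.43 (tissue). There the photon ratios were -0.0028 for Usp18, -0.80 for Ddx58, -2.70 for Stat2, -0.0024 for Parp9 and 0 for Dhx58, Parp12, Parp14 and Igtp, and the proton ratios 0 for Dhx58 and -0.88 for Dtx3l. Counts for the 11-day and tissue comparisons were also recomputed after seeing the data. Against 31 in each, the 11-day count was 18 with median-of-ratios scaling and 19 (of 24) without all 6 lists, and the tissue count was 19 over every deposited barcode, 3 with at least 2500 genes, 8 (of 26) without 5 types and 1 (of 8) without all 6. Of these counts only that with median-of-ratios scaling has a share of all genes beside it, 16.8%. The causes of these shifts were not tested. Depth limits the shares, since the median 7-day barcode holds 899 to 1048 UMIs.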
